A study of Mus musculus with 7 samples.

Results

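Interferon-stimulated genes (ISGs) were examined in mouse mammary glands kept in organ culture. The set was chosen by name, with earlier results of these data known. It comprises 9 genes, Ifit1, Ifit2, Ifit3, Isg15, Irf7, Oasl2, Mx1, Usp18 and Rsad2. Of these, 7 were represented by a gene probe whose accession RefSeq pairs with the symbol, out of 34967 gene probes and 13971 named genes. Each of the 7 had 1 probe. Mx1, which RefSeq lists as a transcribed pseudogene in the C57BL/6J genome, and Rsad2 were not analysed here. RNA of 7 groups was hybridized to CodeLink whole-genome arrays, 1 array per group, so no difference has a replicate check and no test was run. The study compared αERKO, βERKO and wild-type (WT) glands, which lack estrogen receptor α, lack estrogen receptor β or hold both. The αERKO and βERKO mice had a C57BL6/129SV background and the WT mice were C57, so genotype and strain background cannot be told apart. By the study's methods the WT and βERKO glands held alveolar lesions induced by DMBA and the αERKO glands held none, so the presence of lesions cannot be told apart from the αERKO genotype either. These glands were cultured for 24 days, and for each group RNA from 5 mice was pooled. The titles name the carcinogen 7,12-dimethylbenz[a]anthracene (DMBA) only for the WT array, whereas by the protocol glands received 2 µg/ml DMBA for 24 h from Day 3. The other 4 arrays hold WT glands that had no DMBA, at 10 and at 24 days, and BALB/c glands at 24 days with or without vitamin D5, for which DMBA and the dose of vitamin D5 are not stated in the titles. All donors were 4-week-old females. By the general protocol the medium held insulin and prolactin (each 5 µg/ml), aldosterone and hydrocortisone (each 1 µg/ml) for the first 10 days. In glands kept 24 days, insulin alone (5 µg/ml) followed for 14 days. Before culture, mice had progesterone (1 mg) combined with either estradiol (1 µg, over 9 days), by the general protocol, or EGF (25 ng, over 5 days), by the study's account of its 3 array groups.

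Interferons are secreted cytokines of antiviral defence. Type I interferons bind the receptor chains IFNAR1 and IFNAR2, the kinases JAK1 and TYK2 are activated, and a complex that holds STAT2 and IRF9 then binds interferon-stimulated response elements in the promoters of ISGs. Interferon γ uses another receptor, and many ISGs respond to both. The products of the genes described here either block viral RNA and its translation (the IFIT and OAS families), raise interferon production further (IRF7), or modify proteins and restrain the pathway (ISG15 and USP18).

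The response element is shown first because several of these genes share its letters. Its core, 2 copies of GAAA with 2 bases of any kind between them, was searched on both strands, overlapping matches included, in the 250 bases before each start of the RefSeq promoter table, and 978 of 32851 such windows (2.98%) held it. Of the 7 listed genes found in that table, Isg15, Ifit1, Ifit3 and Rsad2 held it. The windows of Irf7, Oasl2 and Ifit2, for which 2 starts are listed, did not hold these letters. Each of these windows reaches into its gene as RefSeq annotates it, and 1 of the 2 of Ifit2 lies wholly inside. The 250 bases before these annotated genes were therefore searched only in part. Usp18 and Mx1 are not in that table. Windows of 120 bases (GRCm38.p6, written 5′ to 3′ on the strand of the gene) are given for Isg15 and Ifit1, measured genes with a match whose windows lie before the annotated gene, with the matches in capitals; for Ifit1 the core lies on the opposite strand, so it reads as TTTC repeated. The windows are chr4:156200826-156200945 on the minus strand for Isg15 and chr19:34640739-34640858 on the plus strand for Ifit1.
Isg15: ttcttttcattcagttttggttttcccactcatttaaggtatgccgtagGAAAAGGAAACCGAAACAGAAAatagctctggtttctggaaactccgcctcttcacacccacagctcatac
Ifit1: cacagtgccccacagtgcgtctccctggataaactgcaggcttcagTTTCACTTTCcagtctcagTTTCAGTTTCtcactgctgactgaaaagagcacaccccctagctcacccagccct
Isg15 held 3 overlapping matches, the nearest beginning 66 bases before the start. Ifit1 and Ifit3 held the same 2 letter strings, TTTCACTTTC and TTTCAGTTTC, beginning 104 and 85 bases before the start of Ifit1 and 156 and 122 bases before the start that the table lists for Ifit3. That start lies inside Ifit3 as RefSeq annotates the gene, so these matches lie within the annotated gene.

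The deposited intensity of each spot, from which local background was already subtracted, was divided by the median over the gene probes of its array, so a scaled intensity of 1 is the level of the middle probe of that array. The scanner software gave 68.4% to 74.2% of the gene probes of an array its flag for a good spot, and probes with its flag for low signal are called near background here. The median intensity lay between 39.1 and 53.0, over a median local background between 80 and 83, and the lowest scaled intensity of a good spot lay between 0.271 and 0.362. Among the targeted genes, Esr2 was brightest on the array titled as the Esr2 knockout, with a scaled intensity of 1.83. It was also good on the WT array at 24 days without DMBA (0.684). On all others it was near background, at 0.0170 on the WT array with DMBA. Because the signal opposes the title, the array so titled is called the βERKO-labelled array throughout. By the study's methods all mice were genotyped, and whether this probe lies outside the deleted part of Esr2 was not tested. The Esr1 probe was near background on the αERKO and the βERKO-labelled array and good on 2 of the 5 wild-type arrays. All 8 mammary epithelial markers examined were good on all 7 arrays.

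The αERKO array stood highest for most of the ISGs. Ifit1, Ifit3, Oasl2, Irf7 and Usp18, that is 5 of the 7, were over 2-fold brighter on the αERKO array than on each of the other 6 arrays. Of all 32062 probes good on at least 1 array, 4.69% met that rule, and 20.8% were simply highest on the αERKO array. With normexp background correction, which compresses dim values, it was 3 (Ifit3, Irf7 and Oasl2), beside 2.08% of all probes.

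**Figure D1:**
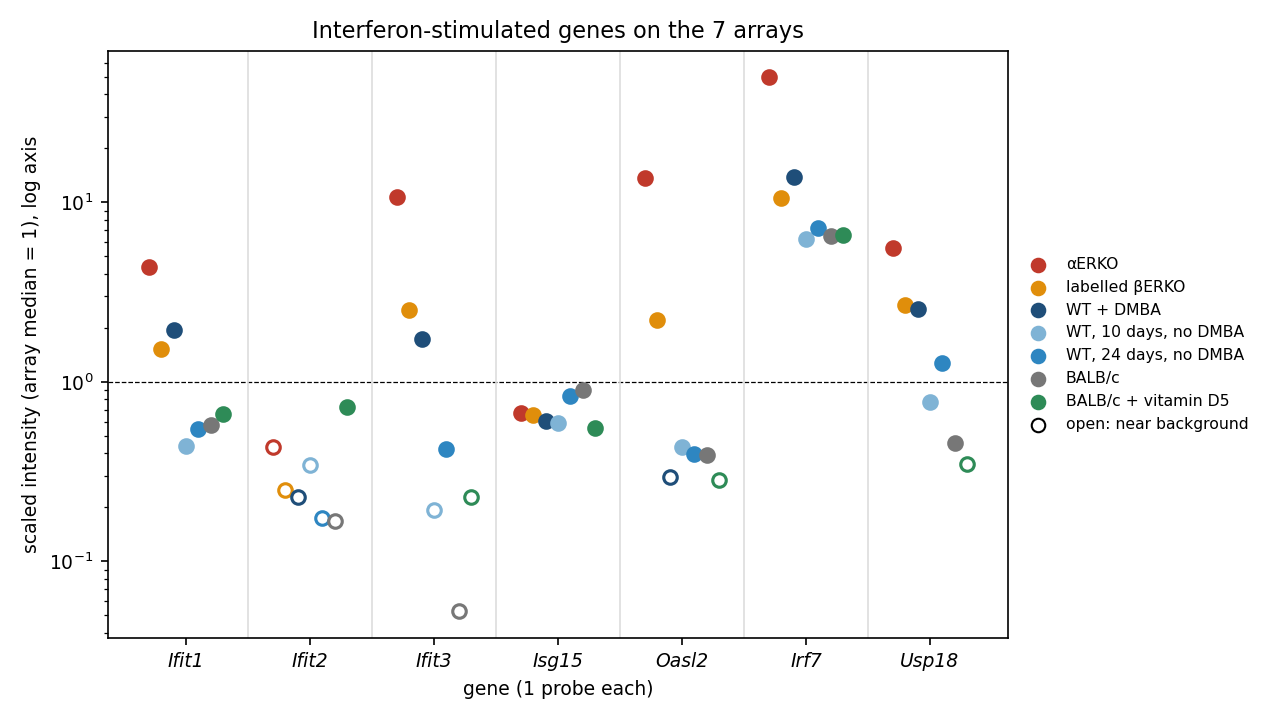
Scaled intensity (array median = 1, log axis) of the 7 ISGs on each array, 1 probe per gene and 1 point per array; filled points were called good and open points were near background. The αERKO point lies above all others for Ifit1, Ifit3, Oasl2, Irf7 and Usp18, whereas the 7 points of Isg15 lie between 0.556 and 0.906.

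The IFIT proteins bind viral RNA and hold back its translation. Ifit1 had a scaled intensity of 4.35 on the αERKO array, 1.52 on the βERKO-labelled array, 1.96 on the WT array with DMBA, 0.441 on the WT array at 10 days, 0.547 on the WT array at 24 days without DMBA, 0.574 on the BALB/c array and 0.660 on that with vitamin D5. It was good on all 7 arrays, and the 3 arrays of the study all lay above the other 4. Ifit3 was good on 4 arrays, at 10.8 on the αERKO array, 2.52 on the βERKO-labelled array, 1.73 on the WT array with DMBA and 0.420 on the WT array at 24 days without DMBA. On the WT array at 10 days and on both BALB/c arrays it was near background, at 0.193, 0.0528 and 0.230, and the αERKO level was at least 35.8-fold above the detection limit of each of these arrays. Ifit2, of the same family, was near background on 6 of 7 arrays, at 0.167 to 0.433, and good only on the BALB/c array with vitamin D5, at 0.723. The neighbouring Ifit genes therefore did not share 1 pattern, although differences among arrays on which Ifit2 was near background are not detectable here.

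OASL2 belongs to the oligoadenylate synthetase family of sensors of double-stranded RNA. Its gene had a scaled intensity of 13.7 on the αERKO array and 2.21 on the βERKO-labelled array, and it lay between 0.283 and 0.434 on the other 5 arrays, near background on the WT array with DMBA (0.296) and on the BALB/c array with vitamin D5 (0.283). Thus the αERKO and the βERKO-labelled array lay above all 5 wild-type arrays. This differs from Ifit1, Ifit3, Irf7 and Usp18, for which the WT array with DMBA was also above the 4 arrays outside the study.

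Irf7, encoding the transcription factor that amplifies interferon-α production, had scaled intensities of 49.7 on the αERKO array, 10.6 on the βERKO-labelled array and 13.8 on the WT array with DMBA. The other 4 arrays lay between 6.23 and 7.15, so within these 4 the highest was close to the lowest.

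Usp18, whose product removes ISG15 from proteins and inhibits signalling at IFNAR2, was at 5.56 on the αERKO array, 2.70 on the βERKO-labelled array and 2.55 on the WT array with DMBA. It was at 1.28 on the WT array at 24 days without DMBA, 0.768 on the WT array at 10 days, 0.459 on the BALB/c array and 0.349, near background, where vitamin D5 was added. The βERKO-labelled array and the WT array with DMBA were close to each other, and both BALB/c arrays were lowest.

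Isg15, encoding the ubiquitin-like protein that is joined to other proteins during the interferon response, did not follow the other genes. It was good on all 7 arrays but dim, at 0.670 on the αERKO array, 0.650 on the βERKO-labelled array, 0.603 on the WT array with DMBA, 0.593 on the WT array at 10 days, 0.834 on the WT array at 24 days, 0.906 on the BALB/c array and 0.556 on the BALB/c array with vitamin D5. Its highest value was 1.63-fold its lowest, the narrowest range of the 7 genes, where the other 2 genes good on all arrays, Ifit1 and Irf7, spanned 9.88-fold and 7.98-fold.

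For αERKO against WT, both with DMBA by the protocol, 5 of the 7 ISGs exceeded 2-fold on the αERKO side and 0 were below it. Ifit2, near background on both arrays, could not be counted. Over all probes tested, 11.7% were over 2-fold higher and 14.1% lower, so that 45.3% of the probes past 2-fold were higher, and 53.4% with scaling to the 75th percentile. The log2 ratios were 2.64 for Ifit3, 1.84 for Irf7, 1.15 for Ifit1 and 1.13 for Usp18, each good on both arrays, and 0.15 for Isg15. Oasl2, near background on the WT array, was at least 46.2-fold higher on the αERKO array. Its log2 ratio went from 5.53 to 3.28 with normexp background correction. The median over the 7 genes was 1.15, against -0.09 over all probes good on at least 1 array. Between probes of the same accession, the SD of a log2 ratio in this comparison was 0.61 over 524 probe pairs. Here and in each comparison, this SD covers disagreement between probes on the same arrays, and holds no variation between glands or between arrays. With normexp background correction the count over 2-fold was 3, beside 3.60% of all probes, fewer than the 11.7% without it.

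For the βERKO-labelled array against WT, 1 ISG was over 2-fold higher and 0 lower, where 6.96% of all probes were over 2-fold higher and 8.37% lower. That gene was Oasl2, at least 7.47-fold higher, and since it was near background on the WT array the count over probes good on both arrays was 0. With normexp the log2 ratio of Oasl2 went from 2.90 to 1.23. The log2 ratios were 0.54 for Ifit3, 0.11 for Isg15, 0.08 for Usp18, -0.36 for Ifit1 and -0.38 for Irf7, against an SD between probes of the same accession of 0.38. The median over the 7 genes was 0.11. Over the 6 genes good on at least 1 of the 2 arrays it was 0.10, beside 0.09 over all such probes. Both comparisons share the WT array, and the Esr2 signal on the βERKO-labelled array leaves the direction of this one tied to a doubtful label.

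Set against the βERKO-labelled array, 5 of the 7 ISGs exceeded 2-fold on the αERKO side and 0 were lower, beside 13.5% and 16.6% of all probes. The log2 ratios were 2.63 for Oasl2, 2.22 for Irf7, 2.10 for Ifit3, 1.51 for Ifit1 and 1.04 for Usp18, and 0.04 for Isg15, all from probes good on both arrays. The median over the 7 genes was 1.51, and the SD between probes of the same accession was 0.58. With normexp background correction the count was 3, beside 4.75% of all probes. Markers of other cell types described below also differed between these 2 arrays. All 6 fibroblast markers (median log2 ratio 2.16) and all 5 T cell markers tested were over 2-fold higher on the αERKO array. So were all 5 skeletal muscle markers (7.62) and all 4 natural killer cell markers tested (4.74). Of 7 macrophage markers 4 were higher and 1 lower, and 6 of 8 mammary epithelial markers were lower. The part of these cells in the ISG ratios was not tested.

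**Figure D2:**
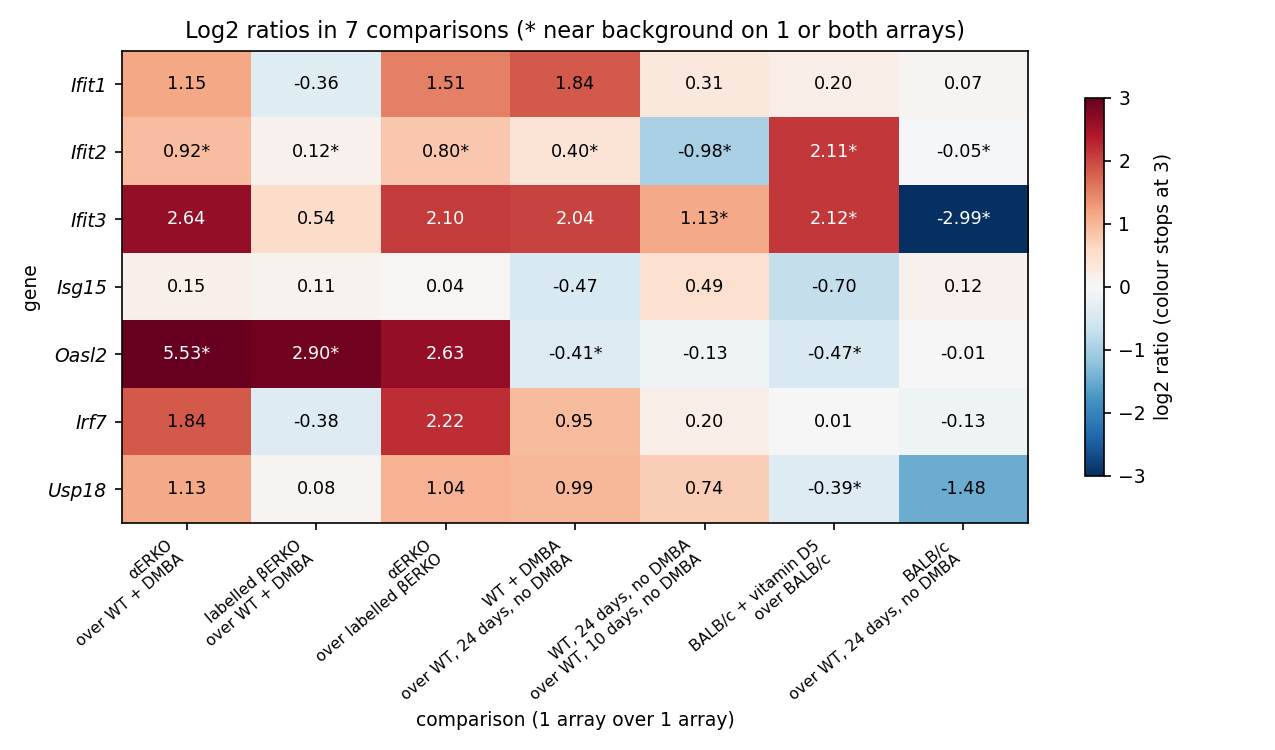
Log2 ratio of scaled intensities (colour and number) for each of the 7 ISGs in 7 comparisons, each of 1 array over 1 array; an asterisk marks a gene near background on 1 or both arrays. Ratios above 1 fill most of the αERKO columns, whereas the ratios of Isg15 lie between -0.70 and 0.49.

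The WT arrays allow DMBA to be set against its absence at the same culture time. Ifit3 and Ifit1 were over 2-fold higher on the WT array with DMBA than on the WT array at 24 days without it, with log2 ratios of 2.04 and 1.84, and 0 of the 7 were over 2-fold lower. Over all probes, 10.1% were over 2-fold higher and 8.46% lower. Usp18 and Irf7 had log2 ratios of 0.99 and 0.95, just under the threshold, so that at a threshold of 1.5-fold the count was 4, beside 16.8% of all probes. Isg15 was at -0.47, and Oasl2, near background with DMBA, was at least 1.33-fold lower there. The SD between probes of the same accession was 0.32. Under normexp background correction the count over 2-fold was 0, beside 3.80% of all probes. Ifit1, Ifit3, Irf7 and Usp18, 4 of the 7, were brighter with DMBA than on both WT arrays without it, which was so for 28.5% of all probes, and were highest there among the 5 wild-type arrays, which was so for 21.5%. Across all arrays, 4 of the 7 ISGs (Ifit1, Ifit3, Irf7 and Usp18) were higher on each of the 3 arrays of the study than on any of the other 4, which was so for 8.88% of all probes, and for 13.2% without the βERKO-labelled array, where the count, which leaving out an array cannot lower, was again 4. The WT array with DMBA has the genotype and strain of the WT arrays without it, but by the study's account the pretreatment of the mice may also differ, and DMBA and pretreatment cannot be told apart. Whether the BALB/c glands had DMBA is not stated.

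Culture time gave smaller differences. By the protocol, glands kept 24 days had insulin alone for the last 14 days, after the 10 days with all hormones. Culture time and the withdrawal of the other hormones therefore cannot be told apart. Between 24 and 10 days in WT glands without DMBA, Ifit3 was the only one of the 7 over 2-fold higher and 0 were lower, beside 6.05% and 6.34% of all probes. It was near background at 10 days, and the bound on its difference was 1.40-fold. The count higher was 0 with normexp, with a floor at the lowest good value and over probes good on both arrays. The log2 ratios of the genes good on both arrays were 0.74 for Usp18, 0.49 for Isg15, 0.31 for Ifit1, 0.20 for Irf7 and -0.13 for Oasl2, where the SD between probes of the same accession was 0.23. All 5 adipocyte markers (median log2 ratio 2.10) and 4 of 7 macrophage markers (1.27) were also over 2-fold higher at 24 days. So were 2 of 4 endothelial markers tested, and in each of these lists 0 were lower. Of 8 mammary epithelial markers 0 were higher and 2 lower. The part of these cells in the ISG ratios was not tested.

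In BALB/c glands with vitamin D5 against those without it, 1 ISG was over 2-fold higher and 0 lower, beside 5.12% and 7.06% of all probes. This gene was Ifit2, at least 2.51-fold higher with vitamin D5, and with normexp the count was 0, beside 0.387% of all probes. Among the genes good on both arrays, the log2 ratios were 0.20 for Ifit1, 0.01 for Irf7 and -0.70 for Isg15, against an SD of 0.23. Ifit3 was near background on both arrays and gives no ratio. Of 6 fibroblast markers 3 (median log2 ratio 0.96) were over 2-fold higher with vitamin D5 and 0 lower, and their part was not tested.

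BALB/c glands were also set against WT (C57) glands at 24 days without DMBA. Here 0 of the 7 ISGs were over 2-fold higher and 2 were lower on the BALB/c array, beside 9.17% and 9.33% of all probes. Usp18, good on both, had a log2 ratio of -1.48, and Ifit3, near background on the BALB/c array, was at least 1.46-fold lower. With normexp the count lower was 0, beside 1.81% of all probes. Of 7 macrophage markers 5 (median log2 ratio -2.99) and of 5 adipocyte markers all 5 (-2.20) were also over 2-fold lower on the BALB/c array, and their part was not tested. The log2 ratios of Ifit1, Isg15, Irf7 and Oasl2 lay between -0.13 and 0.12, where the SD between probes of the same accession was 0.33. DMBA is not stated for the BALB/c array, so strain and DMBA cannot be told apart if it was given.

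The rest of the pathway was described from lists of genes by role, beginning with the ligands. Of 19 interferon genes listed, 11 had a probe. Their levels were low, and 4 were good on all 7 arrays. Ifng, for interferon γ, was good on the αERKO array (0.733) and on the BALB/c array with vitamin D5 (0.406) and near background on the other 5, between 0.0749 and 0.170. Ifnb1, for interferon β, was good on the WT array at 24 days without DMBA (0.526) and on the BALB/c array with vitamin D5 (0.410) and near background on the αERKO array (0.188). Among ligand genes good on the arrays compared, αERKO over WT gave log2 ratios of -1.21 for Ifnz, 0.64 for Ifna1 and -0.46 for Ifna7. Interferon α and ζ genes have near-identical copies, so probes for them may not be specific to 1 gene.

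All 5 receptor genes with a probe were good on all arrays, and all 5 were lower on the αERKO than on the WT array. Their log2 ratios lay between -1.62 and -0.57, where the SD between probes of the same accession was 0.61. The median over all probes good on at least 1 of these arrays was also below 0, at -0.09. Ifngr2, a chain of the interferon γ receptor, was the 1 gene of the 5 over 2-fold lower (-1.62), beside 14.1% of all probes, whereas Ifnar1 was at -0.97 and Il10rb, which serves interferon λ and IL-10, at -0.90. With normexp 2 of the 5 were over 2-fold lower, beside 5.87% of all probes. On the WT array with DMBA the same 5 genes had log2 ratios between 0.05 and 0.90 over the WT array without it. For that comparison the median over all such probes was -0.13 and the SD between probes of the same accession 0.32. Of these 5 genes 0 were over 2-fold higher, beside 10.1% of all probes. Both directions held for all 5 genes under quantile normalization, the 75th percentile and normexp.

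Of the 9 signalling genes with a probe, which include Jak1, Jak2, Tyk2, Stat2 and Irf9, 1 was over 2-fold higher on the αERKO than on the WT array and 0 were lower, beside 11.7% and 14.1% of all probes, so this count is near the background. That gene was Socs1, a feedback inhibitor of JAK kinases, with a log2 ratio of 1.39, and with normexp the count was 0. Socs1 was over 2-fold lower (-1.31) on the WT array with DMBA than on that without. The count lower was 1 of 9 there, beside 8.46% of all probes and so near the background, and 0 with normexp. Jak1 was at -0.62 on the αERKO over the WT array. Stat2, at -1.25, was the 1 gene of the 9 over 2-fold lower on the βERKO-labelled than on the WT array. Beside 8.37% of all probes this count is also near the background, and with normexp it was 0. The 17 sensor and regulatory factor genes included 1 gene above and 1 below the 2-fold threshold for αERKO over WT, a smaller share each way than over all probes, and the median of their log2 ratios was -0.39. The higher gene was Zbp1, a sensor of left-handed nucleic acids (1.74), and the lower was Tlr7, the endosomal receptor for single-stranded RNA (-2.49). Tlr7 was high on the WT array with DMBA alone, with a scaled intensity of 6.48 against 0.263 to 1.46 on the other 6 arrays.

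Further ISGs gave a mixed picture for αERKO against WT. Of 33 with a probe, 32 were good on at least 1 of the arrays, 10 were over 2-fold higher and 3 lower, beside 11.7% and 14.1% of all probes, with a median log2 ratio of 0.23; with normexp 5 were higher and 2 lower, beside 3.60% and 5.87%. Epsti1 (2.26) and Ifitm1, whose product blocks the entry of viruses (2.05), were higher, and Trim30a was lower (-2.03). On the βERKO-labelled array, 1 of 32 was over 2-fold higher and 11 were lower than on the WT array, beside 6.96% and 8.37% of all probes, among them Ifitm1 (-3.11) and Trim30a (-2.82), and with normexp 6 were lower, beside 2.33%. Against the βERKO-labelled array, 9 of 31 were higher and 1 lower on the αERKO array, beside 13.5% and 16.6% of all probes, and with normexp 5 were higher and 0 lower, beside 4.75% and 7.16%. On the WT array with DMBA, 13 of 31 were over 2-fold higher and 0 lower than without DMBA, beside 10.1% and 8.46% of all probes, among them Ifitm1 (2.73), Trim30a (2.35) and Rtp4 (2.18), and with normexp 9 were higher and 0 lower, beside 3.80% and 1.60%. Between 24 and 10 days in WT glands, 0 of 29 were higher and 1, Ifitm3, was lower (-1.03), beside 6.05% and 6.34% of all probes. On the BALB/c array 0 of 28 were over 2-fold higher and 4 lower (Trim30a, Uba7, Ifi204 and Pnp) than on the WT array at 24 days without DMBA, beside 9.17% and 9.33% of all probes, and with normexp 1 was lower, beside 1.81%. In BALB/c glands with vitamin D5 over without it, 4 of 29 were higher (Ifi44, Ifitm1, Uba7 and Ifi204) and 2 lower (Oas2 and Slfn1). These counts stand beside 5.12% and 7.06% of all probes. With normexp 0 were higher and 0 lower, beside 0.387% and 0.236%.

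Genes known mainly as targets of interferon γ were described next. Of the 22 with a probe, 12 were over 2-fold higher and 2 lower on the αERKO than on the WT array, beside 11.7% and 14.1% of all probes, with a median log2 ratio of 1.19. Against the βERKO-labelled array 15 of 21 were higher and 2 lower, beside 13.5% and 16.6%. On the βERKO-labelled array itself 0 were over 2-fold higher and 4 lower than on the WT array, beside 6.96% and 8.37%, with a median of -0.45. With normexp these counts were 6 and 0 against WT, beside 3.60% and 5.87% of all probes, and 12 and 1 against the βERKO-labelled array, beside 4.75% and 7.16%. For the βERKO-labelled array over WT, 1 was lower with normexp, beside 2.33%, and 6 with quantile normalization. The genes with the largest ratios to WT were Ido1, the tryptophan-degrading enzyme (5.00), Cxcl9, a chemokine that attracts activated T cells (4.14), and Tgtp1, an immunity-related GTPase (3.78). Ido1 had a scaled intensity of 50.6 on the αERKO array and lay between 0.428 and 1.75 on the other 6. Ciita, the activator of MHC class II genes, was at 2.69 on the αERKO array and between 0.401 and 0.481 on the other 6. Cxcl10 went the other way, at 1.26 on the αERKO array, 3.13 on the WT array with DMBA and 5.25 on the βERKO-labelled array. On the WT array with DMBA 11 of the 22 genes were over 2-fold higher and 0 lower than without DMBA, beside 10.1% and 8.46% of all probes, with Ifi47 (2.68), Psmb9 (1.43) and Psmb8 (1.31) the largest among probes good on both arrays, and with normexp 4 were higher and 0 lower, beside 3.80% and 1.60%. Between 24 and 10 days in WT glands without DMBA, 3 of 20 (Tgtp1, Cxcl10 and Ido1) were over 2-fold higher and 0 lower, beside 6.05% and 6.34% of all probes, and with normexp 0 were higher. All 5 adipocyte, 4 of 7 macrophage and 2 of 4 endothelial markers tested were also over 2-fold higher at 24 days. Their part was not tested. On the BALB/c array 0 of 20 were higher and 4 lower (Gbp5, Tap1, Tapbp and Cxcl10) than on the WT array at 24 days without DMBA, beside 9.17% and 9.33%, and with normexp 0 were lower. With vitamin D5 over without it, 1 of 20 (Irgm2) was higher and 2 (Gbp2 and Ido1) were lower, beside 5.12% and 7.06%. With normexp 0 of these 20 were higher and 0 lower.

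**Figure D3:**
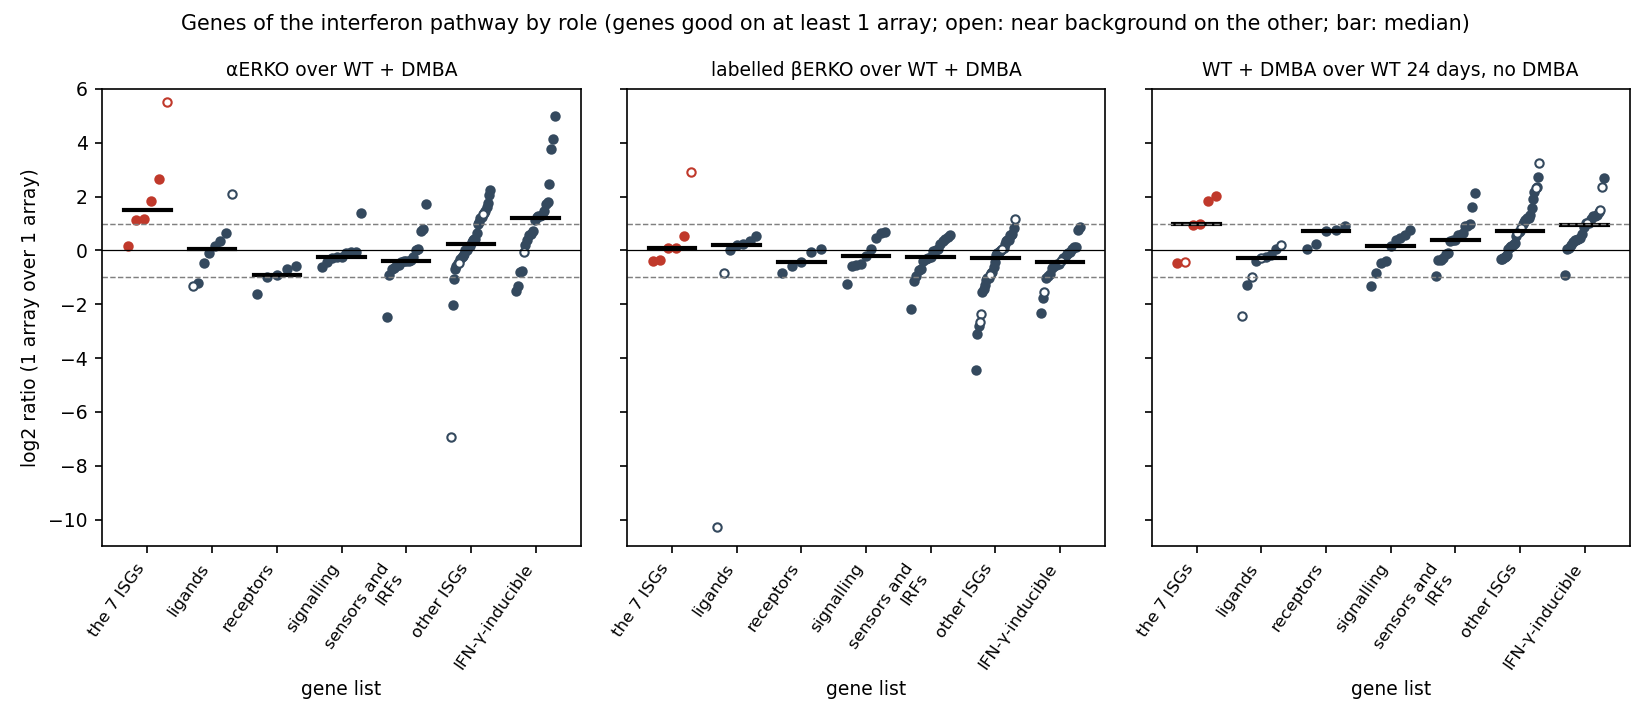
Log2 ratio of each gene with a good spot on 1 or both arrays, by role in the interferon pathway, for αERKO over WT with DMBA (left), the βERKO-labelled array over WT with DMBA (middle) and WT with DMBA over WT at 24 days without it (right); bars are medians, dashed lines are 2-fold, open points were near background on 1 array. The interferon γ targets have a median of 1.19 in the left panel, where all 5 receptor genes lie below 0; the lowest points are Ifne (middle panel) and Ifi202b (left panel), each near background on 1 array.

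Markers of other cell types also differed between arrays, in both directions. Their counts for αERKO over WT stand beside the 11.7% of all probes that were over 2-fold higher and the 14.1% that were lower. Of 6 T cell markers with a probe, 5 were good on the αERKO array and all 5 were over 2-fold higher than on the WT array, and the summed scaled intensity of the 6 was 78.6 on the αERKO array against 4.66 to 6.08 on the other 6 arrays. Cd3g was at 21.6 on the αERKO array, whereas the Cd3e probe was near background on all 7. Of 5 natural killer cell markers, 4 were over 2-fold higher on the αERKO than on the WT array, with a sum of 11.2 against 0.627 to 1.32, and Gzma and Ncr1 were good on the αERKO array only. Skeletal muscle markers summed to 1075 on the αERKO array against 2.66 to 35.5 on the others, and mammary epithelial markers to 427 against 596 to 1568. Of 7 macrophage markers 1 was over 2-fold higher and 6 were lower on the αERKO than on the WT array. Of 5 B cell markers 2, Cd79b and Ms4a1, were over 2-fold higher and 0 lower. Of 4 endothelial markers tested Kdr was over 2-fold higher and Pecam1 and Emcn were lower. The part of these cells in the ISG levels of the αERKO array was not tested, and in whole glands more cells of a type and more RNA per cell cannot be told apart. Of 6 plasmacytoid dendritic cell markers, which mark the main producers of interferon α, the sum on the αERKO array was 12.4, within the 9.15 to 18.9 of the other 6, although Siglech was highest there (2.45).

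The WT array with DMBA, compared with the WT array at 24 days without it, also carried more of other markers, and its counts stand beside 10.1% of all probes higher and 8.46% lower. Of 7 macrophage markers 6 were over 2-fold higher and 0 lower, with a sum of 693 on the WT array with DMBA against 124 to 241 on the other 6 arrays. All 6 fibroblast markers were over 2-fold higher, with a sum of 203 against 12.4, and the αERKO array had the highest sum, 402. All 4 endothelial markers tested were over 2-fold higher, and the 5 with a probe summed to 32.0 against 6.60. T cell markers had 0 of 5 over 2-fold higher and 1 lower. Mammary epithelial markers had 0 of 8 higher and 3 lower, with a median log2 ratio of -0.69 and a sum of 596 against 1050. The part of these cells in the higher Ifit1 and Ifit3 levels was not tested. On the βERKO-labelled array, where 11 further ISGs were lower than on the WT array, 6 of 7 macrophage markers (median log2 ratio -2.97), 5 of 6 fibroblast markers (-1.49) and 4 of 4 endothelial markers (-1.42) were also over 2-fold lower, beside 8.37% of all probes, and their part was not tested. Adipocyte markers summed to 1289 to 1640 on the 3 arrays of the study and to 166 to 931 on the other 4.

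**Figure D4:**
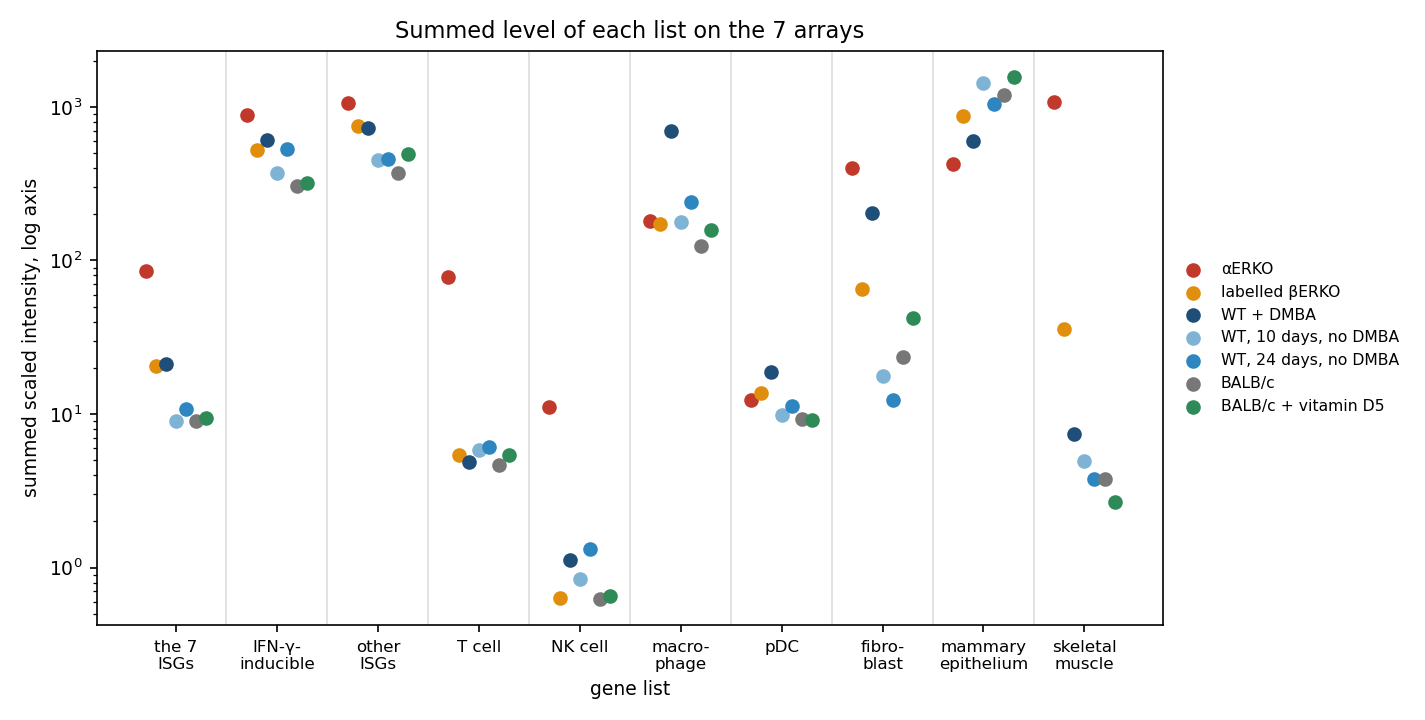
Summed scaled intensity (log axis) of each gene list on each of the 7 arrays, with 1 point per array. The 7 ISGs sum to 85.1 on the αERKO array and to 9.00 to 21.2 on the others; T cell, natural killer cell and skeletal muscle markers are also highest on the αERKO array, macrophage markers on the WT array with DMBA.

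Among 9335 genes good on all 7 arrays, those nearest in profile were ranked by the root mean square difference from the mean centred log2 profile of Ifit1, Isg15 and Irf7, the 3 ISGs good on all arrays. The narrow range of Isg15 flattens that mean, and Ifit3, Oasl2 and Usp18 are not in it, so it is the profile of no single ISG. The 5 nearest were Il11ra1 (0.0881), Echs1 (0.108), Emc9 (0.125), Nacc2 (0.126) and Plscr4 (0.152), in log2 units. Il11ra1 was at 66.0 on the αERKO array, 28.6 on the βERKO-labelled array, 32.4 on the WT array with DMBA and 16.9 to 18.8 on the other 4. These likenesses describe 7 points that share their arrays.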

How the data were processed

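Total RNA from the cultured mammary glands of each group was measured on 1 CodeLink mouse array. RNA was pooled for the 3 groups of the study, and pooling is not stated for the other 4. The authors quantified spots with the CodeLink Expression Analysis software, and each deposited intensity is the mean of a spot with its median local background subtracted, beside a quality flag. The deposited series table was not used, since its entries carry no probe name; 320 negative and 300 positive control spots were left out.

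Following the study's methods, each array was scaled to the median of its 34967 gene probes. Before taking log2, any value not above 0 was set to the smallest positive one of its array. Probes were named through RefSeq (GRCm38.p6), by which 14763 matched 13971 symbols; a gene with several probes was given by the brightest. The deposited tables name no genome build. A ratio was counted past 2-fold if the probe was good on at least 1 of the 2 arrays. Where 1 array was near background, the bound used that array's lowest good value, or the probe's own if that was larger. With 1 array per group no test was possible, and the number of arrays limits the precision.

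Genes named beside the 9 are up to 3 of each role list with the largest ratio among probes good on both arrays, the genes behind small counts, and genes chosen after their values were seen (Ifng, Ifnb1, Ciita, Cxcl10, Siglech and the markers named). The genes and lists were chosen with earlier results of these data known. Alternatives were quantile normalization, the 75th percentile, normexp with an offset of 50, a floor at the lowest good value, probes good on both arrays, all probes of a gene and 1.5-fold. The counting was tested on simulated data. Python 3.11.15, pandas 2.3.3, R 4.3.3 and limma 3.58.1 were used.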

Additional observations from a re-analysis of the deposited data

How the results depend on the processing

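Of 34 log2 ratios of single ISGs good on both arrays, 12 were over 2-fold. These 12 kept their sign under quantile normalization, the 75th percentile, normexp and the floor. The floor cannot change a ratio of a probe good on both arrays. Quantile normalization and the 75th percentile shifted ratios by at most 0.275 and 0.216, too little to reverse a ratio over 2-fold. Under these 3 settings the kept signs are therefore no check. The value of Ifit3 with against without vitamin D5, near background on both arrays and counted in no comparison, went from 2.12 to -0.0903 with the floor. Normexp moved most counts of ISGs over 2-fold: to 3 higher for αERKO over WT, 3 for αERKO over the βERKO-labelled array and 3 for αERKO over each other array (added after the data were seen), and to 0 higher for WT with DMBA over without, for 24 over 10 days and for vitamin D5, and 0 lower for BALB/c over WT. Over probes good on both arrays the counts were 4 higher for αERKO over WT, 0 higher for the βERKO-labelled array over WT, for 24 over 10 days and for vitamin D5, and 1 lower for BALB/c over WT. Quantile normalization and the 75th percentile each gave 3 higher for WT with DMBA over without. The floor gave 0 higher for 24 over 10 days and 1 lower for BALB/c over WT. At 1.5-fold they were 4 higher for WT with DMBA over without, 2 higher for 24 over 10 days and 1 lower for vitamin D5. The mean over all probes of a gene changed nothing, as each ISG had 1 probe. With normexp the median over the 7 genes went from 1.15 to 0.74 for αERKO over WT, from 1.51 to 0.97 for αERKO over the βERKO-labelled array and from 0.31 to 0.15 for 24 over 10 days. The medians near 0 changed sign with the 75th percentile, to 0.16 for BALB/c over WT and to -0.11 for vitamin D5, and that of the βERKO-labelled array over WT went from 0.11 to 0.06. The median for vitamin D5 also turned negative with quantile normalization (-0.14) and with the floor (-0.09). The 75th percentile moved the median ratio of all probes from -0.13 to 0.05 for αERKO over the βERKO-labelled array and from -0.14 to 0.08 for BALB/c over WT, and the share of higher probes among those over 2-fold from 44.9% to 55.8% and from 49.6% to 67.1%, and for αERKO over WT from 45.3% to 53.4%. Normexp moved this share from 54.5% to 70.3% for WT with DMBA over without, from 42% to 62.1% for vitamin D5, from 48.8% to 37.6% for 24 over 10 days and from 49.6% to 36.6% for BALB/c over WT. No paired analysis was possible because each group has 1 array. Signal near background limits Ifit2, Ifit3 and Oasl2. The cause of these differences was not tested.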

Other observations

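Ifi202b, an interferon-inducible gene of the DNA-binding HIN-200 family, was named after its values were seen. Its brighter probe had a scaled intensity of 22.5 on the WT array with DMBA, 20.9 and 20.4 on the WT arrays without DMBA at 10 and 24 days, and 11.7 and 16.4 on the BALB/c arrays without and with vitamin D5. It was at 1.04 on the βERKO-labelled array and near background, at 0.185, on the αERKO array, so the αERKO and the βERKO-labelled array, whose Esr2 signal opposes its title, lay below all 5 wild-type arrays. The other probe of the gene, good on 5 arrays, lay between 0.795 and 2.19 on the wild-type arrays and was near 0.251 and 0.357 on the αERKO array and the βERKO-labelled array. The αERKO and βERKO mice had a C57BL6/129SV background, and genotype and strain background cannot be told apart. Ifi204, of the same family, went the other way, at 12.7 on the αERKO array, 5.50 on the βERKO-labelled array, 4.16 on the WT array with DMBA and between 0.230 and 1.10 on the other 4 arrays.

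Oas3 had 2 probes with different patterns. The brighter lay between 1.97 and 2.62 on all 7 arrays, whereas the other was at 3.39 on the αERKO array and between 0.535 and 1.14 on the other 6, and both were good on every array. The 2 probes of Trim25 differed in direction. Its brighter probe was at 40.2 on the αERKO array and 30.3 on the WT array with DMBA, whereas the other was at 0.956, its lowest value of the 7 arrays, and 3.77.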
